A study of Mus musculus with 7 samples.

Results

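Hepcidin and 9 further genes of iron handling were examined for binding of the retinoid receptors in mouse liver. The 10 genes, of 21887 protein-coding genes, were Hamp, Bmp6, Hfe, Tfr2, Tfrc, Trf, Slc40a1, Cp, Fth1 and Ftl1. They were chosen by name for their roles, with earlier results of these data known. Every peak whose midpoint lay inside the span of one of these genes, or no more than 50 kb from it, was taken, which gave 486 of the 245004 peaks in 6 lists. Chromatin immunoprecipitation and sequencing (ChIP-seq), which maps where a protein sits on DNA, had been performed for retinoic acid receptor α (RARα), RARβ and retinoid X receptor α (RXRα), each in 1 library from mice on a control diet and 1 from mice fed retinoic acid (RA). All libraries came from livers of wild-type C57BL/6 males, 3 months old. The labels give 1 day of feeding, the study's methods a longer treatment, and the duration is therefore not settled. The study describes no RARβ ChIP-seq and points to another data series for its own ChIP-seq. Whether its methods and read totals belong to these libraries is therefore not established. How many animals a library holds is not given in the sources used here. An input library from both diets was not used here. With 1 library per receptor and diet there is no replicate, so all values below describe these libraries, and no test or error between animals can be given.

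The peak lists held 35521 (RARα control), 44296 (RARα RA), 14968 (RARβ control), 29467 (RARβ RA), 61128 (RXRα control) and 59624 peaks (RXRα RA). The study's text states totals of uniquely mapped reads for RARα and for RXRα without naming the diet, and no total for RARβ. A read depth could therefore not be assigned to any of the lists. The score of a peak is the peak caller's own measure of how far its reads exceed the background, it starts at 50 in each list, and it is not comparable between libraries. Scores are therefore given with their rank, as the top percent of the peak's own list, control before RA where a pair is given. A list's length enters this percent, so RARβ ranks, from lists of very unequal length, are also given after both lists were reduced to 14968 peaks where a pair of them is compared. A peak in the top 1% stands among the strongest of that library. Distances are counted from the outermost end of a gene's RefSeq span on GRCm38, on its 5′ side, called the start. Positions before the start are negative. The lists carry no expression values, so the identity of the tissue could not be checked on marker genes. Whole liver was used, and binding in fewer cells and weaker binding in each cell cannot be told apart.

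Iron balance is set by the liver. Hamp encodes hepcidin, a peptide hormone secreted by hepatocytes that binds ferroportin (Slc40a1), the cellular iron exporter, and has it degraded, so that less iron enters the plasma. Its transcription is driven by Bmp6, a bone morphogenetic protein released by the endothelium of liver sinusoids, and is tuned by Hfe and Tfr2, hepatocyte membrane proteins that sense iron-laden transferrin. Transferrin (Trf) carries iron in plasma, transferrin receptor 1 (Tfrc) takes it into cells, ceruloplasmin (Cp) oxidises iron for loading onto transferrin, and the ferritin heavy and light chains (Fth1 and Ftl1) store it. The RARs are activated by RA and bind DNA together with an RXR, typically at repeats of a hexamer half-site.

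The sequence before 5 starts is shown because the peaks over them span the range seen in the 10 genes. The start of Tfrc lay under a peak in all 6 lists, the inner start of Fth1 under peaks of RARα and RARβ, those of Ftl1 and Hamp under some lists of both receptor families, and that of Bmp6 under none. Each stretch runs 5′ to 3′ over the 250 bases before the start, from RefSeq (GRCm38.p6). Capitals mark receptor half-sites (AGGTCA, the variant GGGTCA, the variant AGTTCA or the variant GGTTCA, on either strand) and the core GGCGCC, known from bone morphogenetic protein response elements.
Hamp, chr7:30944030-30944279, minus strand: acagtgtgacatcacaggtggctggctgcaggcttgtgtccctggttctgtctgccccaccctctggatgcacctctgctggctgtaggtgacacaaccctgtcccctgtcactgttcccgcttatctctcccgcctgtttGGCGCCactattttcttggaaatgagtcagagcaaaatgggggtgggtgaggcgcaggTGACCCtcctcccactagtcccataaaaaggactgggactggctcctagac
Tfrc, chr16:32608646-32608895, plus strand: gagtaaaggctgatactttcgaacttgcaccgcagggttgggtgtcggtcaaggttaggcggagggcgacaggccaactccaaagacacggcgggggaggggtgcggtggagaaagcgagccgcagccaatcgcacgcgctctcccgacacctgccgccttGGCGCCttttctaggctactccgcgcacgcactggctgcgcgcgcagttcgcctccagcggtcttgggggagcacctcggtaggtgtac
Fth1, inner start, chr19:9982396-9982645, plus strand: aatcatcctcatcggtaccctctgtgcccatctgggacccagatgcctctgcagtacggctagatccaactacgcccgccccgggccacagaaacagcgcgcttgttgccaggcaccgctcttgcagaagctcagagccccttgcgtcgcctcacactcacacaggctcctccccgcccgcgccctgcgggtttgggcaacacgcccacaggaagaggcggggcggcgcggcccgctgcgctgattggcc
Ftl1, chr7:45459887-45460136, minus strand: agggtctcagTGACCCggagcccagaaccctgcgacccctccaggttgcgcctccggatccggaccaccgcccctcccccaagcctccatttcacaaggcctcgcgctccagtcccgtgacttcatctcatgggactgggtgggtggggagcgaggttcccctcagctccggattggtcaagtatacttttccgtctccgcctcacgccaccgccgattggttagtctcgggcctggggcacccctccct
Bmp6, chr13:38345466-38345715, plus strand: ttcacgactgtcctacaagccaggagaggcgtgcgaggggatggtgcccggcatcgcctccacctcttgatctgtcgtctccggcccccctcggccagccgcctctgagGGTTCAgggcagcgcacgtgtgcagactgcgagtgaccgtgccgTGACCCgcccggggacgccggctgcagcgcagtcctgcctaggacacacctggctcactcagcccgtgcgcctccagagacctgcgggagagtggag

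Promoter windows from 250 bases before to 50 bases after a start were at hand for 8 of the 10 genes, 13 windows in all. A half-site was found in 5 of them, which belong to Bmp6, Ftl1, Hamp and Tfr2, against 43.7% of all 32851 windows. In the Hamp sequence, the half-site TGACCC, which reads GGGTCA on the other strand, ends 46 bases before the start, and GGCGCC lies at -109 to -104. Tfrc carries GGCGCC at -89 to -84 and no half-site. GGCGCC was present in 2 of the 13 windows and in 11.9% of all windows. Bmp6 has 2 half-sites, at -141 to -136 and at -97 to -92, and the E-box CACGTG. In Tfr2, GGGTCA at -146 to -141 and GGTTCA at -96 to -91 lie before the first start listed in RefSeq, which is 18 bp inside the gene span. Direct repeats of half-sites spaced by 1, 2, 4 or 5 bases occurred in 0 of the 13 windows, and in 0.222%, 0.268%, 0.0822% and 0.0974% of all windows. The E-box was in 1 of the 13 windows and 7.15% of all. The antioxidant response core TGACNNNGC was in 2, of Bmp6 and Hfe, and in 12.4% of all. E-box and GGCGCC read the same on both strands, and the E-box in Bmp6 overlaps no half-site. Fth1 and Cp showed no half-site in these windows. The letters describe these windows only, and the sequence under peaks farther from the starts was not analysed here.

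Peaks of all 3 receptors lay around every one of the 10 genes. All 10 had a peak in the window in each of the 6 lists, a condition also met by most genes: 83.7% of protein-coding genes for RARα control, 84.8% for RARα RA, 70.2% for RARβ control, 77.8% for RARβ RA, 83.7% for RXRα control and 84.3% for RXRα RA. Per list, the windows of the 10 genes together held 73, 90, 28, 69, 113 and 113 peaks in the same order. The median gene of the 10 had 7 (RARα control), 9 (RARα RA), 2.5 (RARβ control), 7 (RARβ RA), 11 (RXRα control) and 11.5 peaks (RXRα RA), whereas the median over all genes was 4, 4, 1, 3, 5 and 5. Windows are not equally long, since they grow with the gene, and that of Bmp6 spans the longest gene of the 10, with 154599 bp. Many of these peaks lay closer to other genes. The member's own start was the nearest protein-coding start for 26 of 73, 36 of 90, 12 of 28, 27 of 69, 56 of 113 and 56 of 113 peaks. The same share for the windows of all genes was not computed.

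Within 10 kb of the start, the share of these genes with a peak was above that of genes at large in each list. A peak midpoint within 10 kb of the start was present in 10 of 10 genes for RARα control (61.9% of all 21536 protein-coding genes of known strand), 10 for RARα RA (63.3%), 7 for RARβ control (44.1%), 10 for RARβ RA (54.7%), 10 for RXRα control (61.3%) and 10 for RXRα RA (61.7%). Within 1 kb the numbers were 7 (45.9%), 8 (46.2%), 3 (33.1%), 5 (40.3%), 7 (40.1%) and 7 (41.9%). Hamp, Hfe and Trf were the 3 genes without a RARβ peak within 10 kb under the control diet, and shared that pattern over the 6 lists. The other 7 had a peak in every list, as did 38.2% of all genes. No gene of the 10 lacked a peak in all lists, compared with 28.2% of all genes. These counts depended on list length. When each list was reduced to its 14968 highest-scoring peaks, 6 genes were left for RARα control (47.1% of all genes), 7 for RARα RA (43.2%), 7 for RARβ control (44.1%), 9 for RARβ RA (40.7%), 3 for RXRα control (20.6%) and 7 for RXRα RA (21.4%).

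**Figure D1:**
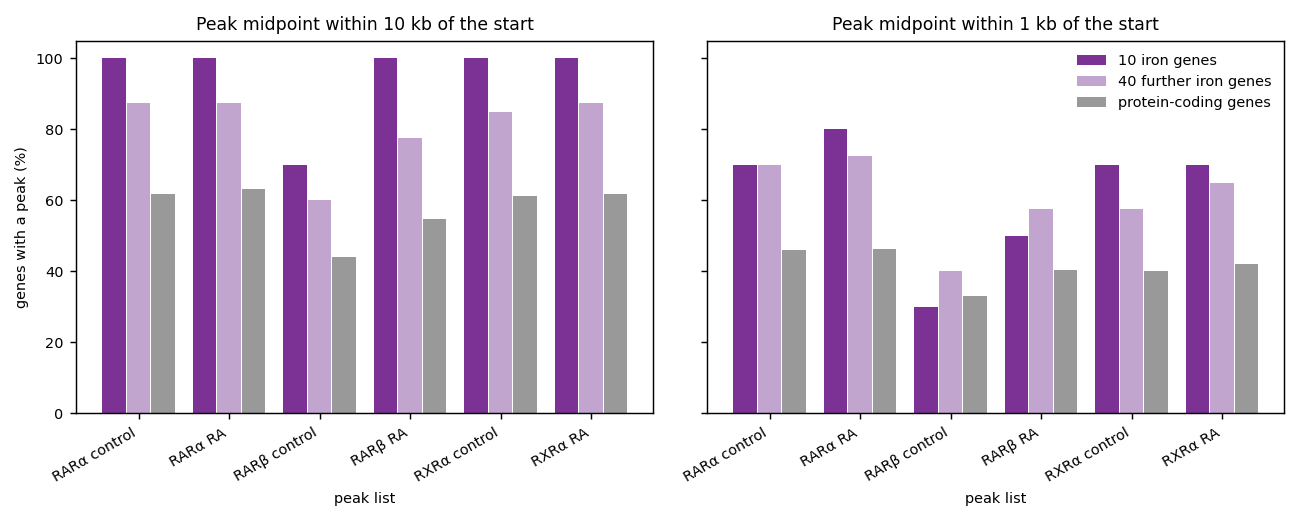
Share of genes (y axis, %) with a peak midpoint within 10 kb (left) or 1 kb (right) of the start in each peak list, for the 10 iron genes, 40 further iron genes and all protein-coding genes of known strand. Bars are shares from 1 library each and carry no error. The bars of the 10 genes reach 100% in every list but RARβ control at 10 kb, and stand at 30% for RARβ control at 1 kb, below the 33.1% of all genes.

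High-scoring peaks made up a somewhat larger share of the windows than of the lists. Of the member peaks, 12 of 73 (16.4%), 15 of 90 (16.7%), 5 of 28 (17.9%), 9 of 69 (13.0%), 16 of 113 (14.2%) and 18 of 113 (15.9%) were in the top 10% of their list by score, against 10% of each whole list by construction. This share was not computed for the windows of all genes, and the peaks counted include those nearest to other genes. The best-ranked peak of a window was nearest to the member's own start in 5, 6, 4, 2, 5 and 5 of the 10 genes. In the remaining windows the strongest signal therefore stood closer to the start of a neighbour. How often this holds for genes at large was not computed, so it is not known to be particular to these genes.

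Among the genes that set hepcidin output, Hamp itself had peaks over its start for RARα (RA diet) and RXRα (both diets). Hamp (chr7:30942368-30944029, minus strand) had 5, 6, 3, 8, 11 and 13 peaks in its window, in the order RARα control, RARα RA, RARβ control, RARβ RA, RXRα control and RXRα RA. Under RA, a RARα peak 4214 bp wide covered the whole gene and the 250 bases shown above, with a score of 392 (top 7.63%). Under the control diet the RARα peak was 3129 bp wide, scored 122 (top 45.6%) and ended inside the gene without reaching the start. The RXRα peaks over the start scored 121 (control, top 56.4%) and 61.4 (RA, top 90.0%). RARβ had no peak over the start of Hamp under either diet. A second region centred 1.71 kb before the start (chr7:30945230-30946245) was called for RARβ RA with a score of 152 (top 26.2%), for RXRα control with 176 (top 41.1%) and for RXRα RA with 403 (top 15.2%), and for RARα in neither list. The RXRα peak thus ranked higher under RA in the region before the gene, and lower under RA at the start.

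The strongest peaks in the Hamp window were not at Hamp. A region 29.8 kb before the start was called in all 6 lists and lay at the starts of Fam187b and Lsr. RARα scores there were 491 (control, top 3.54%) and 508 (RA, top 3.21%). RARβ scores were 88.6 and 202 (top 39.1% and 14.1%, or 39.1% and 27.7% at equal list length), and RXRα scores 378 and 432 (top 15.9% and 13.6%). RXRα under the control diet had its best peak 20.5 kb before Hamp, nearer to Usf2, a transcription factor gene, with a score of 634 (top 5.4%) that was 233 (top 31.7%) under RA. At this region RARβ scored 100.2 (control, top 31.9%, its best there under that diet) and 157 (RA, top 24.4%), and RARα had no peak. At equal list length the RARβ ranks were the top 31.9% (control) and 48.0% (RA), so the better rank was under the control diet. Hamp has a close paralog, Hamp2, in the same window, named here after the values were seen. RARα peaks of 214 (control, top 23.7%) and 380.5 (RA, top 8.35%) stood 3152 bp from the Hamp2 start. Reads of 35 bases that fit both copies cannot be placed with certainty. The study speaks of uniquely mapped reads for RARα and RXRα. If that holds for these libraries, signal in stretches that both copies share may be missing.

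Bmp6, the ligand upstream of hepcidin, had no peak over its start and strong RXRα peaks far from it. Bmp6 (chr13:38345716-38500314, plus strand) had 7, 12, 1, 7, 11 and 12 peaks in its window. None of its 18 merged regions was called in all 6 lists, against 9.75% of all regions. With 1 RARβ control peak in the window, at most 1 region could have been. The 2 half-sites printed above lay under no peak. The nearest region, 541 bp before the start, was called for RARα alone, with scores of 66.7 (control, top 79.2%) and 107 (RA, top 56.4%). A second region 3.0 kb before the start was likewise called for RARα alone, with 77.6 and 139.5 (top 69.8% and 44.2%). RXRα peaks were strongest far downstream. One inside the gene, 151 kb after the start, scored 959 (control, top 1.5%) and 723 (RA, top 4.27%), with RARβ RA at 89.8 (top 56.4%) and RARα at 57.1 and 51.3 (top 90.1% and 98.9%). Another past the gene end, 181 kb after the start and nearest to Txndc5, an endoplasmic reticulum oxidoreductase gene, scored 859.5 and 866 (top 2.22% and 2.59%). The best RARβ peak under RA, with 149 (top 27.1%), lay there too. The best RARα peaks, with 287 and 240.0 (top 14.6% and 22.2%), were close by, also nearest to Txndc5. The only RARβ peak of the window under the control diet, 65.4 (top 63.7%), was inside the gene at 6504 bp. At 27.1 kb before the start, RXRα alone was called, with 749 under the control diet (top 3.44%) and 234 under RA (top 31.5%).

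Hfe carried weak peaks at its own start beside very strong ones at its neighbours. Hfe (chr13:23702034-23710854, minus strand) had 11, 14, 5, 9, 11 and 13 window peaks. The region over its start was called in 5 lists, with RARα scores of 123 and 75.1 (top 45.4% and 75.9%), a RARβ score of 142 under RA (top 29.5%) and RXRα scores of 169 and 264 (top 42.6% and 27.5%). Hfe lies within a cluster of histone genes, and 12.7 kb after its start, at H4c3, a histone H4 gene, RARα reached 1537 (rank 24 of 35521, top 0.0676%) under the control diet and 1224 (rank 58, top 0.131%) under RA. RARβ scored 195 and 198 there (top 8.39% and 14.7%, or 8.39% and 28.9% at equal list length), and RXRα 387 and 298 (top 15.2% and 23.6%). This region was called in all 6 lists, as were 3 others. The one at 26.1 kb after the start had RARα scores of 499.6 and 481 (top 3.32% and 3.95%). The one at 46.3 kb before it had RARα scores of 714 and 634 (top 0.718% and 1.2%). At 19.1 kb before the start, RXRα led, with 369 and 512 (top 16.4% and 9.83%). The best RXRα peak under RA, with 639.6 (top 5.95%), and the best RARβ peak under RA, with 213 (top 12.3%), overlapped 14.5 kb before Hfe, nearest to H1f2, a linker histone gene.

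Tfr2, the other sensor, was bound by all receptors both at its start and within the gene. Tfr2 (chr5:137569822-137588081, plus strand) had 7, 10, 4, 7, 9 and 8 window peaks. At its start, RARα scored 325 (control, top 11.2%) and 373 (RA, top 8.78%), RARβ 74.6 and 69.3 (top 51.7% and 73.8%), and RXRα 180.25 and 133 (top 40.2% and 53.7%). At equal list length the RARβ RA peak at the start was no longer in the list. Inside the gene, 10.6 kb after the start (chr5:137579882-137580931), RXRα ranked far above RARα. There RXRα scored 943 (control, top 1.61%) and 982 (RA, top 1.67%), RARβ 90.7 (top 37.7%) and 295 (top 5.06%, or 9.96% at equal list length), and RARα 115 (top 48.8%) and 168 (top 36.1%). Tfr2 stands among other bound promoters. RARβ had its best window peaks at Lrch4, with 698 (control, top 0.561%) and 1179.5 (RA, top 0.18%, or 0.354% at equal list length). It scored 693 and 796 (top 0.575% and 0.387%, or 0.575% and 0.762% at equal list length) at Gnb2, which encodes a G protein subunit. Both regions were called in all 6 lists, and the best RARα peak under the control diet, 346 (top 9.74%), was also at Gnb2. The single region of the 10 windows that was called for a receptor under 1 diet only and was in the top 10% of the list lay here, 31.1 kb after the Tfr2 start, nearest to Mospd3. It was called for RARβ under RA and not under the control diet, with a score of 240.2 (rank 2644, top 8.97%). At equal list length this rank was outside the top 10%, so the selection depended on list length. RXRα was called there under both diets, with 841 and 622 (top 2.42% and 6.36%). RARα was too, with 148 and 156 (top 37.4% and 39.0%). How many regions at large meet this rule was not computed.

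**Figure D2:**
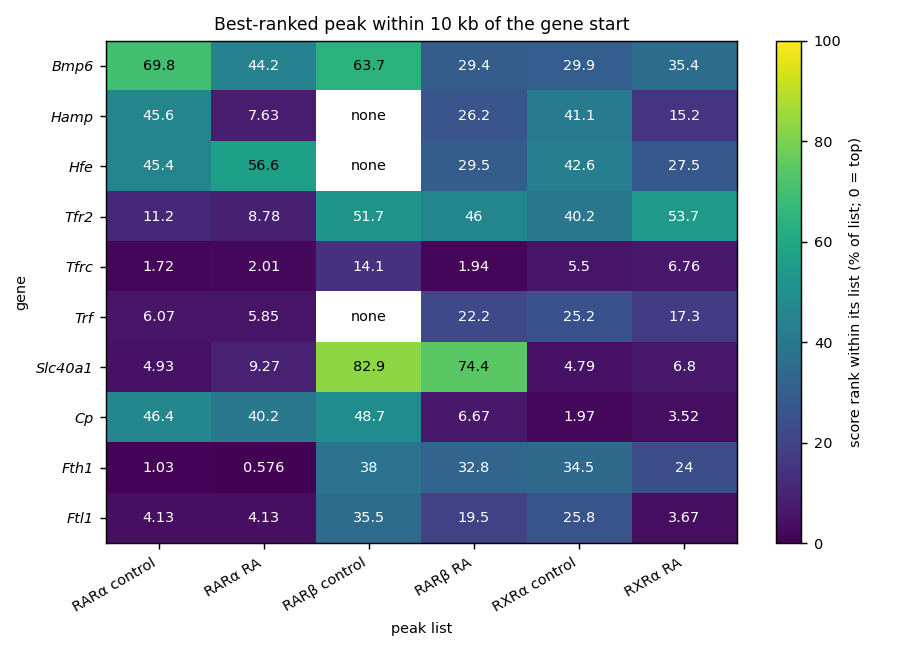
Rank of the best-scoring peak with its midpoint within 10 kb of each gene start, as percent of its own list (0 is the top), for the 10 iron genes (rows) and the 6 peak lists (columns). Dark cells are strong peaks and white cells have none. Tfrc is in the top 10% in all lists but RARβ control (14.1). Fth1 is in the top 10% for RARα alone (1.03 and 0.576), and Cp for RXRα (1.97 and 3.52) and RARβ RA (6.67).

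In the uptake and transport group, Tfrc was bound at its start by all 3 receptors under both diets. Tfrc (chr16:32608896-32632794, plus strand) had 9, 8, 2, 9, 14 and 11 window peaks. The region over its start (chr16:32608279-32609454) was called in all 6 lists and covered the whole stretch printed above. RARα scored 593 (control, rank 611, top 1.72%) and 567 (RA, rank 889, top 2.01%). RARβ scored 154 (control, rank 2104, top 14.1%) and 419.6 (RA, rank 571, top 1.94%). RXRα scored 630.0 (control, top 5.5%) and 607 (RA, top 6.76%). At equal list length the RARβ peak was in the top 14.1% under the control diet and the top 3.81% under RA. In their full lists the ranks of the RARα and RXRα peaks moved by less than 2 percentage points. Their percents at equal list length were not computed, so these shifts are not on the same scale as that of RARβ. A second region in all 6 lists, 64.2 kb after the start and nearest to Tnk2, a kinase gene, scored 541 and 609 for RXRα (top 8.07% and 6.71%), 139 and 158 for RARα (top 40.2% and 38.7%), and 58.7 and 159 for RARβ (top 75.9% and 23.8%, or 75.9% and 46.9% at equal list length).

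Trf had RAR peaks at the start and a row of RXRα peaks before it. Trf (chr9:103208876-103230286, minus strand) had 9, 11, 3, 6, 9 and 10 window peaks. At the start RARα scored 414 (control, top 6.07%) and 427 (RA, top 5.85%), RARβ 165 under RA alone (top 22.2%), and RXRα 277 and 203 (top 25.2% and 36.8%). Regions 11.3 and 13.5 kb before the start were called in all 6 lists. RXRα at the first of these scored 446.5 (control, top 11.9%) and 709.96 (RA, top 4.47%). The best RXRα peak of the window was 18.4 kb before the start, with 525 (control, top 8.57%) and 995 (RA, rank 952, top 1.6%), where RARα scored 88.5 and 105 (top 62.2% and 57.6%) and RARβ 142 under RA alone (top 29.9%). At 44.7 kb before the start, nearest to 1300017J02Rik, RXRα scored 483 (top 10.1%) and 666 (top 5.33%), and RARβ had its best peak of the window under RA, 219 (top 11.4%). Under the control diet the best RARβ peak, 63.9 (top 66.0%), was 28.3 kb after the start, at Srprb, which encodes a subunit of the signal recognition particle receptor. RXRα was called under both diets at 6 regions before Trf. Its rank was better under RA at 4.2, 11.3, 18.4 and 44.7 kb (at 4.2 kb 216 and 370.4, top 33.6% and 17.3%). It was worse under RA at 9.33 kb (102 and 81.2, top 64.1% and 75.8%) and 13.5 kb (298 and 288, top 22.9% and 24.7%).

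Ferroportin, the exporter, carried its strongest peaks within and past the gene, and none over its outermost start. Slc40a1 (chr1:45908070-45926532, minus strand) had 3, 5, 2, 4, 9 and 10 window peaks, and all of its 12 merged regions had Slc40a1 as the nearest start. Within the gene, 0.768 kb after the start, RARα scored 445 (control, top 4.93%) and 366 (RA, top 9.27%), RARβ 55.7 and 55.5 (top 82.9% and 91.0%), and RXRα 56.96 under RA alone (top 93.8%). At equal list length the RARβ RA peak there was no longer in the list. The only region in all 6 lists lay 21.2 kb after the start, past the 18463 bp of the gene (chr1:45904859-45905861). There RXRα scored 937 (control, top 1.65%) and 940.3 (RA, top 1.95%), RARα 69.1 and 118 (top 77% and 52.0%), and RARβ 94.95 (rank 5233, top 35.0%) and 468 (rank 435, top 1.48%, or 2.91% at equal list length). Among RARβ peaks of the 10 windows nearest to the member's own start, only this RA peak and that at the Tfrc start were in the top 2% of their full list. At equal list length these 2 peaks were in the top 2.91% and 3.81%, outside the top 2%. A further RXRα peak inside the gene, 5.66 kb after the start, scored 665 and 606 (top 4.79% and 6.8%).

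Cp, whose product oxidises exported iron, showed RXRα binding before and within the gene. Cp (chr3:19956933-20009750, plus strand) had 7, 7, 4, 4, 13 and 13 window peaks. Of its 18 regions, 10 were called for RXRα alone, against 36.3% of all regions. Fth1 had as many, 10 of 21. The RXRα regions described next were not among these, since each was also called for an RAR. At 2.88 kb before the start (chr3:19953571-19954528) a region was called in all 6 lists, with RXRα scores of 893 (control, top 1.97%) and 779 (RA, top 3.52%), RARα scores of 121 and 152 (top 46.4% and 40.2%), and RARβ scores of 53.5 (top 88.4%) and 267 (top 6.67%, or 13.1% at equal list length). The strongest RXRα peaks were intragenic, 21.7 kb after the start, with 983 (control, rank 851, top 1.39%) and 1005 (RA, rank 916, top 1.54%). RARβ was called there under RA alone, with 131 (top 33.8%). At the start itself the peaks were modest, with RARα at 111 and 78.3 (top 50.5% and 73.5%), RXRα at 157 and 104 (top 45.6% and 64.4%), and no RARβ peak. The best RARβ peaks of the window stood at Hltf, a chromatin remodelling gene, with 229 and 439 (top 5.9% and 1.76%, or 5.9% and 3.46% at equal list length), and the best RARα peaks, with 255 and 323 (top 18.2% and 12.7%), at Hps3.

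Both ferritin genes lay under RARα peaks in the top 10% of their lists. Fth1 (chr19:9980600-9985111, plus strand) had 9, 10, 2, 6, 15 and 13 window peaks. Its outermost start was not covered in any list. The inner start, 2046 bp downstream, lay under RARα peaks of 666 (control, rank 367, top 1.03%) and 758 (RA, rank 255, top 0.576%), and under RARβ peaks of 90.2 (top 38.0%) and 133.5 (top 32.8%, or 64.6% at equal list length). RXRα had no peak there under either diet. It was called instead at 3 regions around the gene. These were 3.34 kb before the outermost start, with 210.1 and 130.3 (top 34.5% and 54.4%), 1.94 kb before it, with 75.5 and 295 (top 78.3% and 24.0%), and at the end of the gene, with 175 and 136 (top 41.3% and 52.6%). The rank was thus worse under RA at the first and last of these and better at the middle one. Elsewhere in the window RXRα under RA scored 559.7 (top 8.11%) at 37.6 kb after the start, a region called in all 6 lists and nearest to Rab3il1. The best RARβ peak under RA, 194 (top 15.4%), was in the same region, and the best RXRα peak under the control diet, 453 (top 11.5%), was also nearest to Rab3il1, 22.6 kb after the Fth1 start.

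Ftl1 (chr7:45457944-45459886, minus strand) had 6, 7, 2, 9, 11 and 10 window peaks. RARα peaks of 5425 bp (control) and 5101 bp (RA) covered the whole gene, with scores of 471 and 475 (top 4.13% in both lists). Narrower peaks of RARβ and RXRα overlapped the ends of these. Beyond the 3′ end, RXRα scored 272 (control, top 25.8%) and 765 (RA, top 3.67%), and RARβ 94.1 and 175 (top 35.5% and 19.5%, or 35.5% and 38.5% at equal list length). At the start, RXRα under the control diet scored 207 (top 35.0%) and RARβ under RA 67.2 (top 76.2%), whereas the RXRα RA peak on that side, with 107 (top 62.9%), stopped short of the start. RARβ peaks were strongest 25.3 kb after the start at Gys1, a glycogen synthase gene, with 391 (control, top 1.88%) and 623 (RA, top 0.689%, or 1.36% at equal list length), a region called in all 6 lists. The best RXRα peak under the control diet, 305 (top 22.2%), was 28.9 kb before the start at Dhdh, and that region scored 652 under RA (top 5.63%). Ferritin genes have processed copies in the genome, 2 of Ftl1 in the gene table used, and reads shared with such copies could be lost.

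A start of a member listed in RefSeq was covered by a peak in 7 genes for RARα control (47.7% of genes with listed starts), 8 for RARα RA (46.4%), 3 for RARβ control (33.2%), 6 for RARβ RA (41.5%), 7 for RXRα control (37.2%) and 6 for RXRα RA (40.5%). For Trf and Slc40a1 the start of the gene span was used. Tfr2 and Tfrc were covered in all 6 lists, Hfe and Trf in 5, Fth1, Ftl1 and Cp in 4, Hamp in 3, and Slc40a1 and Bmp6 in 0.

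Merging peaks that share at least 1 base gave 154 regions at the 10 genes, of 87802 in the genome. Of these, 18 (11.7%) were called in all 6 lists, close to the 9.75% of all regions, and 33 (21.4%) in only 1 list, against 29.4%. The first count was 5 (3.25%) both with a score of at least 100 (all regions 3.02%) and in lists of equal length (all regions 1.49%). RXRα alone accounted for 48 regions (31.2%, all regions 36.3%), and the RARs without RXRα for 29 (18.8%, all regions 20.1%). Of the 69 regions whose nearest start was that of the member, 8 (11.6%) were called in all 6 lists and 28 (40.6%) for RXRα alone. The share for RXRα alone was thus below that of all regions over the whole windows, and above it for the regions nearest to the members' starts. These 8 were at the starts of Tfrc and Tfr2, within Tfr2, before Cp, before Trf (2 regions), at Ftl1 and after Slc40a1. RXRα under both diets with RARβ under RA and not under the control diet was called at 37 regions (24.0%, all regions 16.5%), most of the 42 regions (27.3%, all regions 19.8%) that RARβ had under RA and not under the control diet.

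Between diets, RARβ lists differed most around these genes, as they did overall. The 10 windows held 28 RARβ peaks under the control diet and 69 under RA, a ratio of 2.46, while the whole list was 1.97 times as long under RA. RARβ peaks were more numerous under RA in 9 genes (56.7% of all genes), fewer in 0 (6.87%), and 4 under both diets in Cp. All 10 genes had a RARβ RA peak in the window, against 77.8% of all genes, and a gene without one cannot show more. The shares of all genes in this paragraph are not matched for the number of peaks per gene. The largest differences were in Tfrc and Ftl1, from 2 to 9 each. RARα peaks numbered 73 and 90, a ratio of 1.23 (whole list 1.25), with more under RA in 8 genes (47.9%) and fewer in 1 (13.0%), which was Tfrc. RXRα peaks numbered 113 under both diets (whole list ratio 0.975), with more under RA in 5 genes (29.5%) and fewer in 4 (33.1%). In lists cut to 14968 peaks the RARβ counts were 28 (control) and 35 (RA), so the difference in number was smaller at equal list length. Whether the lists differ in length through depth was not tested. Regions called under RA and not under the control diet numbered 42 for RARβ, 19 for RARα (12.3%, all regions 15.0%) and 15 for RXRα (9.74%, all regions 12.7%). The reverse, control and not RA, held for 3 regions for RARβ (1.95%, all regions 3.6%), 5 for RARα (3.25%, all regions 6.0%) and 18 for RXRα (11.7%, all regions 14.0%). Of the 25 regions called for RARβ under both diets, 11 had the better rank (counted from the top, without regard to list length) under RA and 14 under the control diet. The 5 at Hfe were all among the 14, and both at Tfrc among the 11. The same split over all regions was not computed, so it is not known whether these counts differ from regions at large. Missing a peak in the shorter list does not show absence of binding, since any signal under a score of 50 is not listed.

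**Figure D3:**
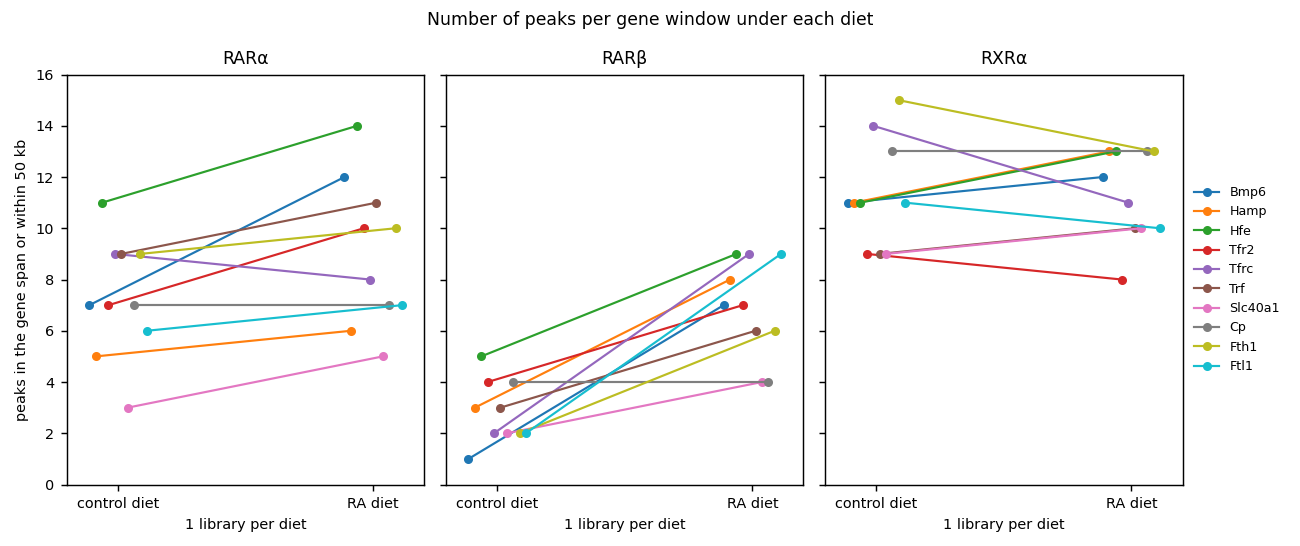
Number of peaks in the gene span or within 50 kb of it (y axis) under the control diet and the RA diet (x axis) for each of the 10 iron genes (colours, shifted sideways so that equal values remain visible), with 1 panel per receptor and 1 library per point. RARβ lines run upwards for 9 genes and flat for Cp, whereas RXRα lines run in both directions.

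A wider list of 40 genes of iron uptake, haem and iron-sulphur metabolism, hepcidin signalling and iron-responsive transcription was set beside the 10. A peak within 10 kb of the start was found for 35 of 40 in RARα control (87.5%, all genes 61.9%), 35 in RARα RA (87.5%, all genes 63.3%), 24 in RARβ control (60%, all genes 44.1%), 31 in RARβ RA (77.5%, all genes 54.7%), 34 in RXRα control (85.0%, all genes 61.3%) and 35 in RXRα RA (87.5%, all genes 61.7%). Peaks were present in all 6 lists for 22 of the 40 genes (38.2% of all genes) and in no list for 4 (28.2% of all genes). The latter were Cybrd1, a duodenal iron reductase, Heph, the ferroxidase of the gut, Ftmt, mitochondrial ferritin, and Ltf, lactoferrin. Why these genes had no peak was not tested.

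The 5 genes of the wider list with the best-ranked peaks, by top percent of the full lists, were Epas1, Aco1, Nfe2l2, Atoh8 and Smad1. Percents at equal list length were not computed for these peaks, so the choice and the RARβ pair below depend on list length. Epas1, which encodes the hypoxia-inducible factor HIF-2α, had RARα peaks at its start of 644 (control, top 1.22%) and 874 (RA, rank 146, top 0.33%). Aco1, which encodes iron regulatory protein 1, had RARα peaks at its start of 627 (top 1.38%) and 534 (top 2.62%). Nfe2l2, encoding the oxidative stress regulator NRF2, had RARα scores of 463 (top 4.36%) and 597 (top 1.58%) and RARβ scores of 129 (rank 3006, top 20.1%) and 451 (rank 479, top 1.63%). Atoh8, a transcription factor gene, had its best peak for RARβ under RA, with 424 (top 1.9%) at -9058 bp from the start. Smad1, a transducer of bone morphogenetic protein signals, had RARα peaks at the start of 563 (top 2.11%) and 494 (top 3.6%). All 5 had a peak within 10 kb in every list.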

How the data were processed

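RARα, RARβ and RXRα binding was measured in mouse liver by ChIP-seq, with 1 library per receptor and diet, grouped by the labels. The authors aligned single-end reads of 35 bases to mm10 with Bowtie and called peaks with MACS, and the submitters' notes also name CASAVA 1.4. The deposited files are peak lists, 1 per library, with a score per peak that is MACS's own and is not normalized between libraries. Read totals are not in the lists. Totals of uniquely mapped reads are stated by the study for RARα and RXRα, with the diet left unnamed, and not for RARβ, so no list could be given a depth. The study describes no RARβ ChIP-seq, and whether its methods and totals belong to these libraries is not established. The highest peak end on chromosome Y, 90842021, lies past the last gene of NCBIM37 (2552957) and within GRCm38.p6 (90843932).

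Here, gene spans were taken from RefSeq GRCm38.p6, with the strand from the RefSeq promoter table for 17492 protein-coding genes and from GENCODE M1 for 4044. The strands disagreed for 50 genes, for which RefSeq was used. Of the 10 members, 8 had promoter windows; Trf and Slc40a1 did not. A peak belongs to a gene when its midpoint lies in the span or within 50 kb, and is near the start within 10 kb. Scores were ranked within 1 list. Python 3.11.15, pandas 2.3.3 and numpy 2.4.6 were used. Peak assignment and motif search were tested on simulated data. All 10 members were described, with peak counts, best-ranked peaks, regions in all 6 lists and regions of 1 diet in the top 10% by score. Other genes were named when they were nearest to a member's best-ranked peak, or, in the wider list, when they had no peak within 10 kb or were the 5 with the best rank. Lsr, Hamp2 and Mospd3 were named in addition, for the regions described with them. The members, the wider list and the rules were chosen with earlier results of these data known. No test was run, since each group is 1 library. Alternatives were a score minimum of 100, lists of equal length, other distances, any base of a peak, a 25% overlap and a single half-site spelling. Exons, introns and peak sequences on GRCm38 were not analysed here.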

Additional observations from a re-analysis of the deposited data

How the results depend on the processing

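Of 88 recomputed values, 54 stayed within 1.5 times the value reported and 34 did not. In the order RARα control, RARα RA, RARβ control, RARβ RA, RXRα control and RXRα RA, the peaks at the 10 genes numbered 33, 38, 12, 25, 44 and 49 with 10 kb in place of 50 kb around the span, and 26, 36, 12, 27, 56 and 56 when the member's start had to be the nearest. With a score of at least 100 they numbered 43, 56, 9 and 34 for the RAR lists. In lists of equal length they numbered 29 and 31 (RARα), 35 (RARβ RA), and 35 and 34 (RXRα). Genes with a peak near the start numbered 1 for RARβ control at a score of at least 100, and 6 for RARα control and 3 for RXRα control in lists of equal length. Within 1 kb they were 3 (RARβ control) and 5 (RARβ RA), and 4 and 6 when any listed start was allowed, an alternative chosen after seeing the data. The wider list gave 12 genes for RARβ control at a score of at least 100, and 16 and 16 for RXRα in lists of equal length. Regions called in all 6 lists numbered 5, in place of 18, both at a score of at least 100 and in lists of equal length, and 18 with a 25% overlap. With AGGTCA as the only half-site, 0 of 13 promoter windows had one. The causes were not tested. Peaks under a score of 50 are not listed, so an absent peak sets no upper limit on binding, and with 1 library per group no value has an error between animals.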
